A study of Mus musculus with 14 samples.

Results

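The report compares gene expression on day 14 of muscle overload with that on days 7 and 10, and describes which of the earlier changes had moved back toward the starting level by day 14 and which were larger. The comparison holds 6 arrays of the 14 in the series, 2 labelled day 14 against 4 labelled day 7 or day 10, and covers 19938 genes that had a probe set with a single gene symbol. All arrays held RNA of the plantaris, a calf muscle, of male C57BL/6J mice aged 25 months, labelled as healthy and old. Overload was by synergist ablation, the surgical removal of the gastrocnemius and soleus, after which the plantaris carries their load. For each of days 0, 1, 3, 5, 7, 10 and 14, 1 Affymetrix Mouse Gene 1.0 ST array held a pool of left and 1 a pool of right muscles, each pool from 6 animals, and each day is a separate set of animals. Day and animals therefore cannot be told apart, and the labels do not say whether the left and right pools of a day came from the same animals. The p-values measure only the spread between these pools, which may be technical. No sham-operated or young muscle was used here.

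Overload of this kind starts with swelling and inflammation after the surgery. Monocytes and macrophages enter the muscle, resident stem cells (satellite cells) and connective tissue cells divide, new matrix is laid down around the fibres, and muscle fibres for a time make less of the proteins of contraction and energy metabolism and more of embryonic ones. In muscle that repairs well, division and inflammation are transient, whereas matrix and fibre remodelling last longer.

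The array medians lay between 8.248 and 8.416 on the log2 scale, and the left and right pools of a day correlated across genes at r between 0.9943 and 0.9971. On all arrays Ckm, the creatine kinase of muscle, lay between 13.35 and 14.26. In whole muscle, fewer cells of a type and less RNA per cell cannot be told apart. Values below are log2 signal, given as left then right pool of a day. Each difference is the day 14 mean minus the mean of the day 7 and day 10 means, with its standard error (SE), and 1 unit is a change of 2-fold. A gene is called when limma's moderated test, two-sided, gives an adjusted p under 0.05 (Benjamini-Hochberg over all 19938 genes).

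On day 14, 1669 genes (8.37% of those tested) were higher than on days 7 and 10 and 2052 (10.3%) were lower. These shares are the background for every count of list members below. At least 2-fold, 65 genes were higher (0.326%) and 100 were lower (0.502%), so most called differences were small. All 3721 called genes had the same sign in the left and in the right pools. These same pools gave the calls, so this is no separate support. In 3631 of the called genes both day 14 arrays lay beyond all 4 earlier arrays (1626 higher, 8.16% of genes, and 2005 lower, 10.1%). Among all genes, called or not, both day 14 arrays lay above all 4 in 3577 (17.9%) and below all 4 in 3884 (19.5%). Lack of overlap was a condition for naming the largest differences, so for those genes it is no separate support. Against day 7 alone, 1640 genes (8.23%) were higher and 2094 (10.5%) lower on day 14. Against day 10 alone the counts were 756 (3.79%) and 1019 (5.11%), whereas day 10 differed from day 7 in 186 genes up (0.933%) and 200 down (1.00%); these 3 comparisons share arrays. With 2 arrays on day 14, the counts rested on both. Without the left pool of day 14 they were 703 higher and 981 lower, without its right pool 945 and 1121, and without the right pool of day 7 there were 1011 higher. In all 6 fits that each left out 1 of the compared arrays, 426 of the 1669 and 715 of the 2052 genes were called, and no called gene was called in the opposite direction. With days 7 and 10 as 1 group of 4 arrays and the day as a random block, 937 genes were higher and 1209 lower.

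The genes were then sorted by their earlier change. Of 5487 genes that rose between day 0 and days 7 and 10 (27.5% of genes), 1859 (33.9%) were lower on day 14, rises that resolved at least in part, and 220 (4.01%) were higher still. Of 7878 genes that had fallen (39.5%), 1202 (15.3%) were higher on day 14 and 26 (0.33%) were lower still. Resolution was mostly partial: 522 of the 1859 and 350 of the 1202 were no longer called against day 0, and day 14 as a whole still differed from day 0 in 4559 genes up (22.9%) and 6074 down (30.5%). Both steps of that sorting use the arrays of days 7 and 10, which pushes the counts of resolving genes up. When the earlier change was taken from day 5 against day 0, arrays that the later comparison does not hold, 1881 of 5257 rises (35.8%) were lower and 163 (3.1%) higher on day 14, and 1204 of 6724 falls (17.9%) were higher and 20 (0.297%) lower. In each sorting, the genes lower on day 14 were mostly earlier rises and the genes higher were mostly earlier falls. The 1859 rises that resolved became 877 and 1061 without the left or right pool of day 14, the 220 rises that grew became 141, 106 and 136 without the left or right pool of day 14 or the right pool of day 7, and the 1202 falls that resolved became 440, 710, 707 and 778 without those 3 and the right pool of day 10.

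**Figure D1:**
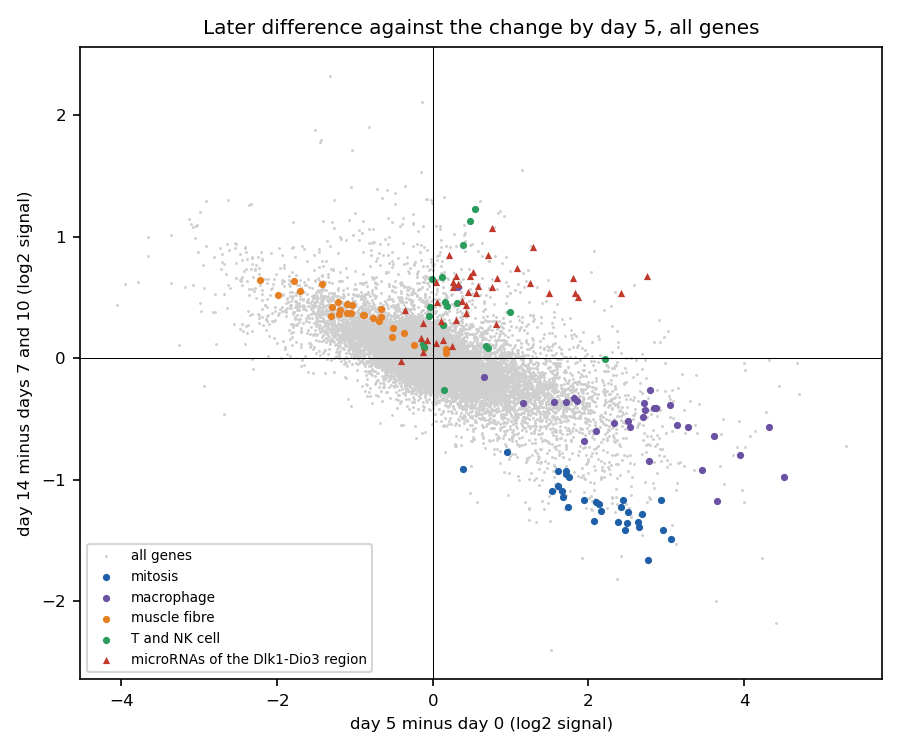
Each point is 1 of 19938 genes, with the difference between day 5 and day 0 on the x axis and the difference between day 14 and days 7 and 10 on the y axis, both in log2 signal; colours mark 4 gene lists and the microRNAs of the Dlk1-Dio3 region. Mitosis genes lie low at the right (median -1.20 on the y axis), muscle fibre genes a little above 0 at the left (median 0.36), and the microRNAs above 0 (median 0.54).

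Genes of cell division had the lowest median of the 49 gene lists examined. All 29 measured genes of mitosis were lower on day 14, with a median difference of -1.20 (all genes: 0.007), and so were all 27 genes of DNA replication, with a median of -0.65. Plk1, a kinase that drives entry into and progress through mitosis, read 7.99 and 7.96 on day 0, 10.42 and 10.75 on day 7, 10.02 and 10.00 on day 10 and 8.51 and 8.78 on day 14. Both day 14 arrays lay far below all 4 earlier arrays and above day 0. Its difference was -1.66 ± 0.10 (3.15-fold lower, adjusted p = 5.1e-06), a loss of 71.3% of its rise. The mitotic checkpoint kinase Bub1 (-1.49 ± 0.24, adjusted p = 0.0016) and cyclin A2, Ccna2 (-1.42 ± 0.24, adjusted p = 0.0021), followed, and in both the day 0 pools differed from each other by more than 1 unit. Proliferation marker Mki67 read 9.66 and 8.24 on day 0, 10.92 and 11.19 on day 7, 10.40 and 10.56 on day 10 and 9.54 and 9.48 on day 14; the left pool of day 0 lay as high as day 14. Its difference of -1.26 ± 0.29 (adjusted p = 0.010) was not called without the left (adjusted p = 0.063) or the right (0.068) pool of day 14. For replication, the ribonucleotide reductase subunit Rrm2 fell by 1.29, the chromatin assembly factor Chaf1b by 0.89 and the replicative helicase subunit Mcm5 by 0.89. The decline had begun by day 10: the mitosis list's median difference was -0.63 between days 7 and 10 and -0.92 between days 10 and 14, and for replication -0.47 and -0.43. On day 14, 21 of 29 mitosis genes and 11 of 27 replication genes were still called above day 0. With any of the 6 arrays left out, at least 28 mitosis genes and at least 21 replication genes stayed lower.

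The promoters of mitosis genes are known to share a cell cycle homology region (CHR), TTTGAA, spaced from one or more CCAAT boxes, through which they are kept silent in resting cells and switched on before division. RefSeq promoter windows (GRCm38.p6, from 250 bases before to 50 after the start) were matched for 23 of the 29 genes, 24 windows in all. Both motifs were searched on both strands. TTTGAA stood in 18 of 24 windows (75.0%) against 17.9% of all 32851 windows, CCAAT in 75.0% against 37.4%, and both in 66.7% against 7.0%. In the replication genes, CCAAT was also frequent, in 65.4% of 26 windows, so it did not set mitosis genes apart from these. TTTGAA stood in 11.5% of the 26 and both motifs in 7.7%, while the E2F site GGCGGGAA stood in 23.1% (mitosis 0.0%, all 2.2%). A match is a string of letters, not a measured binding site. The stretches of 150 bases that end just before the start are shown for 3 members in which both motifs lie there, with the motif letters on either strand in capitals: Cdk1, the kinase that triggers mitosis (chr10:69352913-69353062, minus strand), Mki67 (chr7:135716380-135716529, minus strand) and Prc1, a regulator of cytokinesis (chr7:80294326-80294475, plus strand). The differences of these genes on day 14 were -1.36, -1.26 and -1.16.
Cdk1: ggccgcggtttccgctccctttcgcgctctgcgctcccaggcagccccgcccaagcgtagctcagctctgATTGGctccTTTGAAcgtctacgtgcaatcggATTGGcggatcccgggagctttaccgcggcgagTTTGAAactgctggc
Mki67: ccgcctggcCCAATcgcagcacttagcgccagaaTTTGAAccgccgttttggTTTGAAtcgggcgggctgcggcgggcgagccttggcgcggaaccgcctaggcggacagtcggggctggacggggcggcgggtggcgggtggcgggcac
Prc1: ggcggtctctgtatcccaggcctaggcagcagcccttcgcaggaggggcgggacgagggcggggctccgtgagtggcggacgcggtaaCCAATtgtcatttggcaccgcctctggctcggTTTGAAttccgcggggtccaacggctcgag

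**Figure D2:**
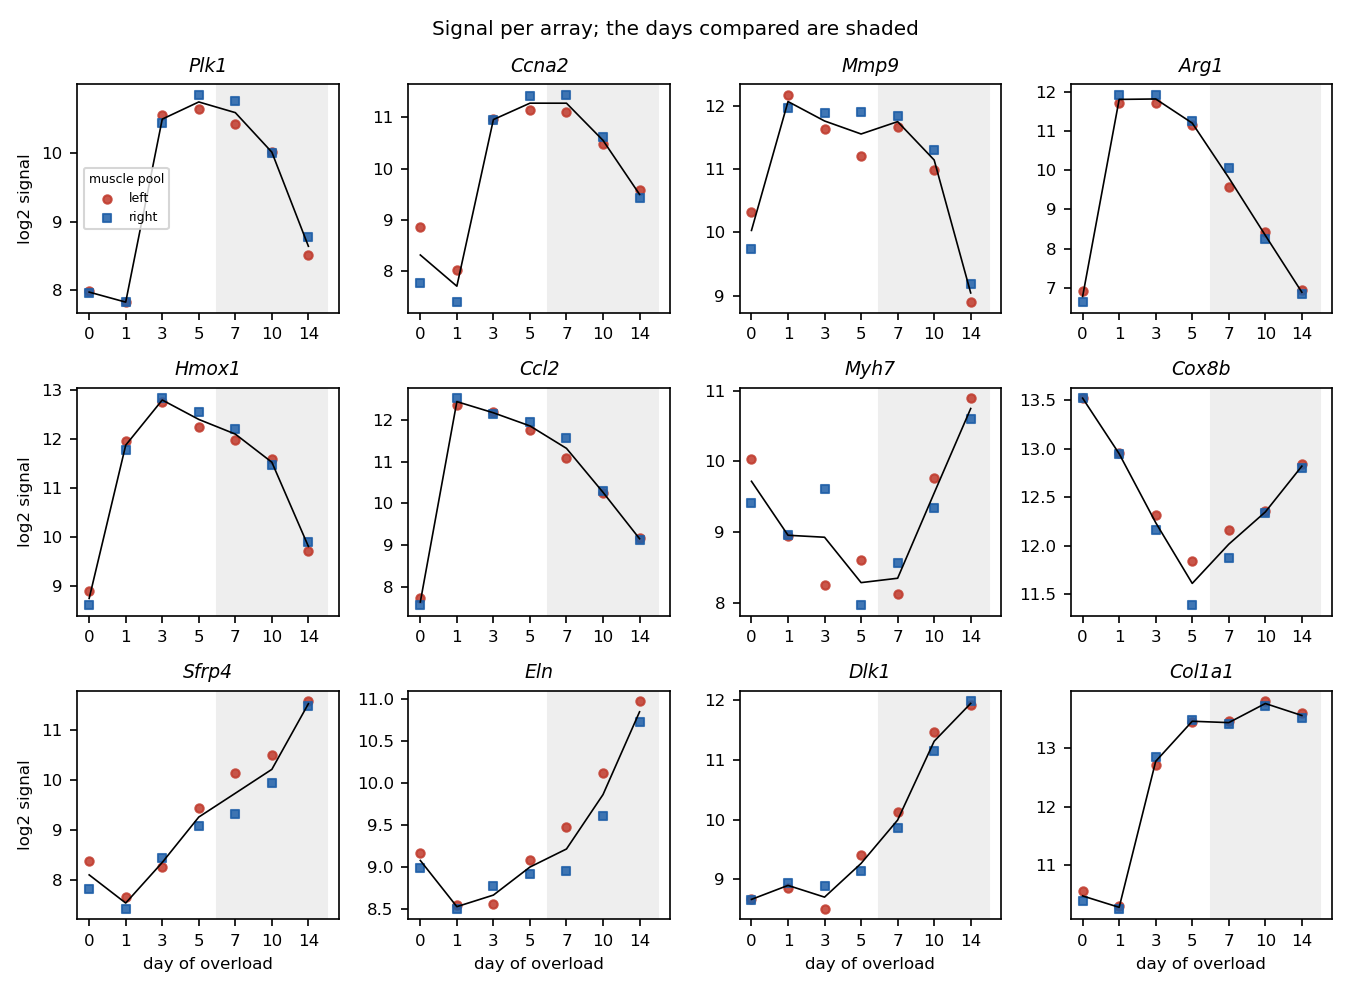
Log2 signal of 12 genes in every array by day of overload, left pools as red circles, right pools as blue squares, the line through the mean of the pair, and days 7 to 14 shaded. Plk1 to Ccl2 peaked early and were lower on day 14, Myh7 and Cox8b were higher, Sfrp4, Eln and Dlk1 were highest on day 14, and Col1a1 on day 14 lay between days 7 and 10.

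Several genes of myeloid cells were among the largest falls. Mmp9, the gelatinase of neutrophils and macrophages, had the largest fall of all called genes. It read 10.33 and 9.73 on day 0, 11.66 and 11.84 on day 7, 10.98 and 11.30 on day 10 and 8.89 and 9.19 on day 14. The day 14 pools lay below every earlier pool and below day 0. Its difference was -2.40 ± 0.20 (5.29-fold lower, adjusted p = 3.3e-05). Arginase 1, Arg1, a marker of wound macrophages, read 6.93 and 6.64 on day 0, 9.57 and 10.04 on day 7, 8.43 and 8.25 on day 10 and 6.95 and 6.84 on day 14; day 14 matched day 0 within the spread of the pools (difference from day 0 of 0.11, adjusted p = 0.56), and the difference from days 7 and 10 was -2.18 ± 0.13 (adjusted p = 5.1e-06). Heme oxygenase 1, Hmox1, which breaks down heme, read 8.90 and 8.61 on day 0, 11.99 and 12.21 on day 7, 11.59 and 11.46 on day 10 and 9.72 and 9.90 on day 14. It lost 65.4% of its rise (adjusted p = 2.9e-06), with no overlap between the groups.

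Of 32 chemokines and cytokines, 14 were lower and 6 higher, with a median of -0.30. The monocyte attractant Ccl2 read 7.71 and 7.54 on day 0, 11.08 and 11.56 on day 7, 10.24 and 10.29 on day 10 and 9.18 and 9.12 on day 14. It declined from day 7 to day 10 and again to day 14, without overlap. Its difference was -1.64 ± 0.12 (adjusted p = 1.4e-05), and 52.0% of its rise was gone. The neutrophil attractant Cxcl5 fell by 1.37 and the monocyte attractant Ccl7 by 1.18, both called without any 1 array. The 6 higher members, named after their values were seen, were Ccl5 (0.92), Cxcl13 (0.88), the eosinophil attractant Ccl11 (0.86), Cxcl14 (0.80), Il33 (0.70) and Cxcl9 (0.33; not called in any of the 6 fits without an array). Ccl8, another monocyte attractant, read 7.25 and 6.62 on day 0, 10.76 and 10.48 on day 7, 10.67 and 10.50 on day 10 and 10.54 and 10.49 on day 14 and was not called (-0.09 ± 0.18, adjusted p = 0.79). Without the right pool of day 7 or of day 14, 9 members were lower.

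Among 28 markers of macrophages and monocytes, 21 were lower on day 14 and 1 was higher (median -0.50), yet 26 were still above day 0, where the list's median difference was 1.71. Scavenger receptor Msr1 read 7.75 and 7.75 on day 0, 10.73 and 11.12 on day 7, 10.14 and 10.23 on day 10 and 9.24 and 9.52 on day 14. Each later day was lower, and the difference was -1.17 ± 0.12 (adjusted p = 9.0e-05). Ms4a6d (-0.98 ± 0.10) and the lysosomal glycoprotein Cd68 (-0.92 ± 0.14, adjusted p = 0.0011) fell likewise. The member that rose was Lyve1, a marker of resident macrophages and of lymphatic vessels, named after its value was seen: 9.54 and 9.49 on day 0, 9.46 and 9.34 on day 7, 9.06 and 8.85 on day 10 and 9.75 and 9.79 on day 14, a difference of 0.59 ± 0.11 (adjusted p = 0.0026). Its day 14 pools were higher than all 4 earlier ones. Without the left pool of day 14 only 10 of the 28 macrophage markers were called lower. Of 13 markers of lipid-laden macrophages 7 were lower, led by the fatty acid binding protein Fabp5 (-1.02) and the lipid receptor Trem2 (-0.88); 1, the lipase Lpl, which fibres and fat cells also make, was higher (0.62); without the left pool of day 14, 4 were lower. Lysosomal genes went the same way, 13 of 21 lower and 0 higher (7 lower without the left pool of day 14), with the protease Lgmn at -0.50 and the hexosaminidase subunit Hexa at -0.48.

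Of 14 neutrophil genes, 5 were lower and 0 higher: the chemokine receptor Cxcr2 (-1.09 ± 0.21, adjusted p = 0.0035), Clec4e (-0.95, not called without the left pool of day 14, adjusted p = 0.14), Trem1 (-0.85), Il1r2 (-0.78) and Csf3r (-0.57), the last 2 named after their values were seen; without the left pool of day 14, 3 were lower. Granule genes such as Ngp (0.11, adjusted p = 0.93) and Camp (-0.01, adjusted p = 0.98) were not called. The list was mostly below day 0 on days 7 and 10 already (8 of 14 lower).

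All 9 genes of the complement list, which leaves out C1q, were above day 0 on days 7 and 10. The receptors for the fragments of complement, C5ar1 (-0.86 ± 0.11, adjusted p = 4.6e-04) and C3ar1 (-0.80 ± 0.10, adjusted p = 3.6e-04), were lower on day 14, as was Cfp, properdin (-0.57). The other 6 members were higher. The chains of C1q, a soluble component made by macrophages and counted among the macrophage markers, did not follow these 6: C1qa (-0.48 ± 0.09, adjusted p = 0.0041) and C1qc (-0.41 ± 0.11, adjusted p = 0.023) were lower, the second lost in 4 of the 6 fits without an array, and C1qb (-0.37, adjusted p = 0.087) was not called. These 3 were named after their values were seen. C4b, a component of the classical pathway, read 8.93 and 8.63 on day 0, 9.65 and 9.29 on day 7, 9.69 and 9.45 on day 10 and 10.27 and 10.23 on day 14, day 14 above all earlier pools, a difference of 0.73 ± 0.13 (adjusted p = 0.0025).

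Most T and NK cell genes were higher on day 14. Of 18 T and NK cell markers, 12 were higher on day 14 and 0 lower, with a median of 0.41, and 13 were above day 0 against 9 on days 7 and 10. Cd3g, a chain of the T cell receptor complex, read 6.78 and 6.79 on day 0, 7.53 and 7.42 on day 7, 8.07 and 7.77 on day 10 and 8.61 and 9.26 on day 14. Each later day was higher, the right pool of day 14 was the highest, and the groups did not overlap. Its difference was 1.23 ± 0.15 (adjusted p = 2.6e-04). The cytotoxic granule protein Nkg7 rose by 1.13 ± 0.21 (adjusted p = 0.0031) and the CD8 chain Cd8b1 by 0.94 ± 0.14 (adjusted p = 7.9e-04). Without the right pool of day 14, 7 were called higher. Of 8 B and plasma cell genes 5 had been below day 0 on days 7 and 10, and 2 were higher on day 14, Jchain, which joins antibody units (1.14, not called without the right pool of day 14, adjusted p = 0.11), and the B cell kinase Blk (0.26); 1 was called without the left pool of day 7 or the right pool of day 10, and 0 without the right pool of day 14. An antibody kappa light chain variable segment, among the largest rises, had a difference of 1.78 ± 0.41 (adjusted p = 0.011; 0.095 without the right pool of day 14), and its day 0 pools differed by more than 1 unit. Mast cell proteases rose: Cpa3 read 8.07 and 7.65 on day 0, 8.34 and 7.75 on day 7, 8.02 and 7.62 on day 10 and 8.96 and 8.76 on day 14 (0.93 ± 0.18, adjusted p = 0.0041; 0.052 without the left pool of day 14) and Mcpt4 had 0.77 ± 0.11 (adjusted p = 7.6e-04), 2 of the 3 called higher of 8 (1 without the left pool of day 14). The 10 genes of antigen presentation on MHC class II differed by -0.23 to 0.24 (median 0.02), none past the threshold, and 9 were above day 0 on day 14.

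Most genes of satellite cells, myogenic factors and cell fusion fell. Of 15 genes, 9 were lower and 1 higher (median -0.33). Myog, the transcription factor of muscle differentiation, read 7.29 and 7.15 on day 0, 10.44 and 10.54 on day 7, 10.41 and 10.35 on day 10 and 9.20 and 9.36 on day 14. It read alike on days 7 and 10 and lower on day 14, with no overlap. The difference was -1.16 ± 0.08 (adjusted p = 1.3e-05), and 36.1% of the rise was lost. Both proteins that fuse myoblasts, Mymk (-0.89 ± 0.09, adjusted p = 9.2e-05) and Mymx (-0.73 ± 0.10, adjusted p = 5.0e-04), fell; Mymx was back at day 0 within the spread (-0.05, adjusted p = 0.75), while Mymk stayed 3.12 above it. The higher member was Mef2c (0.34, adjusted p = 0.033), named after its value was seen and not called in 5 of the 6 fits without an array.

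Embryonic contractile genes resolved little. Of 10 genes of developing and regenerating fibres 7 were lower (median -0.35) and all 10 were still above day 0, where the median difference was 2.34. Ncam1, an adhesion molecule of immature fibres, fell by 0.61 ± 0.08 (adjusted p = 5.7e-04) and cardiac troponin T, Tnnt2, by 0.53 ± 0.09 (adjusted p = 0.0022), losses of 23.6% and 17.7% of their rises. Embryonic myosin Myh3 had -0.50 ± 0.14 (adjusted p = 0.028), a call lost in 5 of the 6 fits without an array (adjusted p up to 0.18, without the left pool of day 14). Neonatal myosin Myh8 read 9.27 and 9.32 on day 0, 11.86 and 11.31 on day 7, 12.27 and 12.47 on day 10 and 11.98 and 12.05 on day 14; day 14 lay among the earlier pools (0.04 ± 0.13, adjusted p = 0.89). Without the left pool of day 7, 10 or 14 or the right pool of day 14, 3 or 4 of the 10 were called.

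The fetal and adult subunits of the acetylcholine receptor both moved part of the way back to day 0. Chrng, the fetal subunit that reappears in immature and denervated fibres, read 7.75 and 7.82 on day 0, 10.74 and 10.69 on day 7, 10.72 and 10.70 on day 10 and 9.51 and 9.64 on day 14. Chrne, the adult subunit that replaces it at the synapse, read 10.80 and 10.72 on day 0, 9.37 and 9.19 on day 7, 9.53 and 9.37 on day 10 and 10.32 and 10.05 on day 14. On day 14 the first had dropped and the second had risen, each beyond all 4 earlier pools. The differences were -1.14 ± 0.09 (adjusted p = 2.9e-05) and 0.82 ± 0.13 (adjusted p = 0.0015), and both genes remained called away from day 0, by 1.79 and -0.58. Chrnd, the delta subunit, fell by 0.59 ± 0.09 (adjusted p = 8.5e-04). Of the 14 synapse and denervation genes 2 were higher and 3 lower; the second higher one, the subunit Chrnb1 (0.26), moved further from day 0, from 0.29 to 0.56 above it, and was not called in 5 of the 6 fits without an array. The subunit Chrna1 (-0.35, adjusted p = 0.065) was not called. Both were named after their values were seen.

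Genes of mature fibres moved up from an early fall. Of 27 genes made mainly by muscle fibres 20 were higher and 0 lower (median 0.36); 22 had been below day 0 on days 7 and 10 and 10 still were on day 14. The differences were small, from 0.04 (Klhl40, adjusted p = 0.91) to 0.64 (Tcap, the telethonin of the sarcomere, adjusted p = 0.044), and the calls fragile: without the right pool of day 7 there were 4, without the right pool of day 10 there were 6, and without the left or right pool of day 14 there were 0 and 3, while the list's median stayed between 0.31 and 0.42. Adult fast fibre genes gave 10 of 17 higher (median 0.37; 5, 5, 2 and 3 without those same arrays). Mybpc2, the fast myosin binding protein, read 13.91 and 13.92 on day 0, 12.47 and 12.21 on day 7, 12.51 and 12.21 on day 10 and 13.13 and 13.08 on day 14, with day 14 above all earlier pools and below day 0. Its difference was 0.75 ± 0.13 (adjusted p = 0.0018), 48.2% of the fall. Fast myosins Myh4 (0.33, adjusted p = 0.015), Myh2 (0.46, adjusted p = 0.016) and Myh1 (0.31, adjusted p = 0.049) each lost their call in 4 of the 6 fits without an array.

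Excitation and calcium release followed, with 10 of 14 genes higher and 0 lower (median 0.39; 4 to 6 higher without the right pool of day 7 or 10 or either pool of day 14). The chloride channel Clcn1, which stabilises the resting fibre membrane, read 11.36 and 11.42 on day 0, 9.21 and 8.92 on day 7, 9.42 and 9.23 on day 10 and 10.04 and 9.93 on day 14. Day 14 was higher than every earlier pool, with a difference of 0.79 ± 0.13 (adjusted p = 0.0016). Jph1, which ties the calcium store to the surface membrane, rose by 0.62 ± 0.12 (adjusted p = 0.0040).

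The slow myosin Myh7 rose past its starting level. It read 10.03 and 9.40 on day 0, 8.13 and 8.56 on day 7, 9.77 and 9.33 on day 10 and 10.89 and 10.60 on day 14. Day 7 was the lowest, day 10 lay between, and both day 14 pools were above all others and above day 0. The difference was 1.80 ± 0.32 (3.48-fold higher, adjusted p = 0.0024), and the difference between day 14 and day 10 alone was 1.20 (adjusted p = 0.064). The slow light chains Myl3 (1.31 ± 0.21, adjusted p = 0.0014) and Myl2 (1.27 ± 0.28, adjusted p = 0.0087; 0.081 without the left pool of day 14) rose also, but Myl3 was still 0.92 below day 0. Of 12 slow fibre genes 5 were higher and 0 lower (3 higher without the left pool of day 14). The other two called higher, Myoz2 (0.51) and Actn2 (0.29, lost in 5 of the 6 fits without an array), were named after their values were seen; slow troponins Tnnc1 (-0.63, adjusted p = 0.098) and Tnni1 (-0.27, adjusted p = 0.34), likewise, were not called. The list's median difference was 0.10, although its median difference from day 0 on day 14 was 1.08.

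Energy metabolism recovered in part across pathways. Glycolysis and glycogen use gave 11 of 18 genes higher (median 0.42), pyruvate oxidation and the citric acid cycle 16 of 19 (median 0.36), fatty acid uptake and oxidation 12 of 20 (median 0.36) and oxidative phosphorylation 14 of 39 (median 0.24), with 0 lower in any of the 4 lists. The median of genes made mainly by muscle fibres was 0.36, and its part in these differences was not tested. Phkg1, the catalytic subunit of muscle phosphorylase kinase, which switches on glycogen breakdown, read 12.23 and 12.32 on day 0, 9.70 and 9.36 on day 7, 9.92 and 9.71 on day 10 and 10.80 and 10.70 on day 14. Day 14 was above all 4 earlier pools and far below day 0. Its difference was 1.08 ± 0.17 (2.11-fold, adjusted p = 0.0013), 41.4% of the fall. The muscle subunit of cytochrome oxidase Cox8b read 13.52 and 13.52 on day 0, 12.16 and 11.88 on day 7, 12.36 and 12.33 on day 10 and 12.84 and 12.80 on day 14, rising from day 7 through day 10. It gained 0.64 ± 0.11 (adjusted p = 0.0024), and Cox7a1 0.81 ± 0.16 (adjusted p = 0.0050). Glycerol phosphate dehydrogenase Gpd1 (0.91), the pyruvate dehydrogenase subunit Pdha1 (0.51), the isocitrate dehydrogenase subunit Idh3a (0.52) and the acyl-CoA dehydrogenase Acadm (0.47) rose and were called without any 1 array. On day 14, 34 of 39 oxidative phosphorylation genes and all 19 and 20 of the citric acid cycle and fatty acid lists were still below day 0. Without the left pool of day 14 the 4 counts were 4, 5, 6 and 5, and for oxidative phosphorylation 9 without the right pool of day 7, 10 or 14. Among 14 regulators of mitochondria 7 were higher (4 and 2 without the right pool of day 7 and the left pool of day 14): the receptor Esrrg rose by 0.90 ± 0.13 (adjusted p = 7.2e-04), and Ppargc1a, the coactivator of mitochondrial genes, by 0.83 ± 0.19 (adjusted p = 0.0093; 0.10 without the left pool of day 14).

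Most ribosomal protein genes and genes of amino acid supply were lower. Of 34 cytosolic ribosomal protein genes 22 were lower and 0 higher (median -0.28), small shifts on an earlier rise of 0.55. Rpsa read 11.18 and 11.27 on day 0, 11.85 and 12.01 on day 7, 11.90 and 11.75 on day 10 and 11.40 and 11.14 on day 14; day 14 was near day 0 and below the 4 earlier pools, a difference of -0.61 ± 0.09 (adjusted p = 0.0011). Rps28 (-0.50) and Rpl8 (-0.46) followed. The count was 14 without the right pool of day 7 and 7 without either pool of day 14. Amino acid transport and synthesis gave 14 of 18 lower and 0 higher (median -0.35; 9 without either pool of day 14). The transporter of large neutral amino acids Slc7a5 read 9.48 and 9.22 on day 0, 11.29 and 11.41 on day 7, 11.07 and 11.06 on day 10 and 10.43 and 10.38 on day 14, with day 14 below all 4 earlier pools and above day 0. Its difference was -0.80 ± 0.08 (adjusted p = 9.6e-05), and its relative Slc7a8 fell by 0.82 ± 0.07 (adjusted p = 5.6e-05). Myc, a driver of ribosome production, fell by 0.79 ± 0.08 (adjusted p = 1.2e-04). Ribosome assembly genes moved less, with 6 of 32 lower. Their median difference was -0.25 between days 7 and 10 and -0.04 between days 10 and 14. Fewer were called lower without the left or right pool of day 14 or the right pool of day 7, where the median was -0.17, -0.19 and -0.13. Of 20 translation factors 5 were lower and 1, Eef1a2 (0.43, adjusted p = 0.026), the elongation factor of adult muscle, was higher (median -0.06); its call was lost in 4 of the 6 fits without an array. The 5 became 2 without the right pool of day 7 or 10, 0 without the left and 1 without the right pool of day 14. On the side of breakdown, 7 of 19 atrophy and autophagy genes were higher and 2 lower (3 and 4 higher without the left and right pool of day 14, and 0 lower without either of these or the right pool of day 7 or 10). Ddit4l, an inhibitor of mTORC1, rose by 0.88 ± 0.11 (adjusted p = 4.3e-04), and the ubiquitin ligase Trim63 by 0.53 ± 0.13 (adjusted p = 0.016), a call lost in 4 of the 6 fits without an array. Proteasome genes showed 2 of 31 higher and 1 lower, and 0 in either direction without the right pool of day 7 or 10 or the left pool of day 14.

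**Figure D3:**
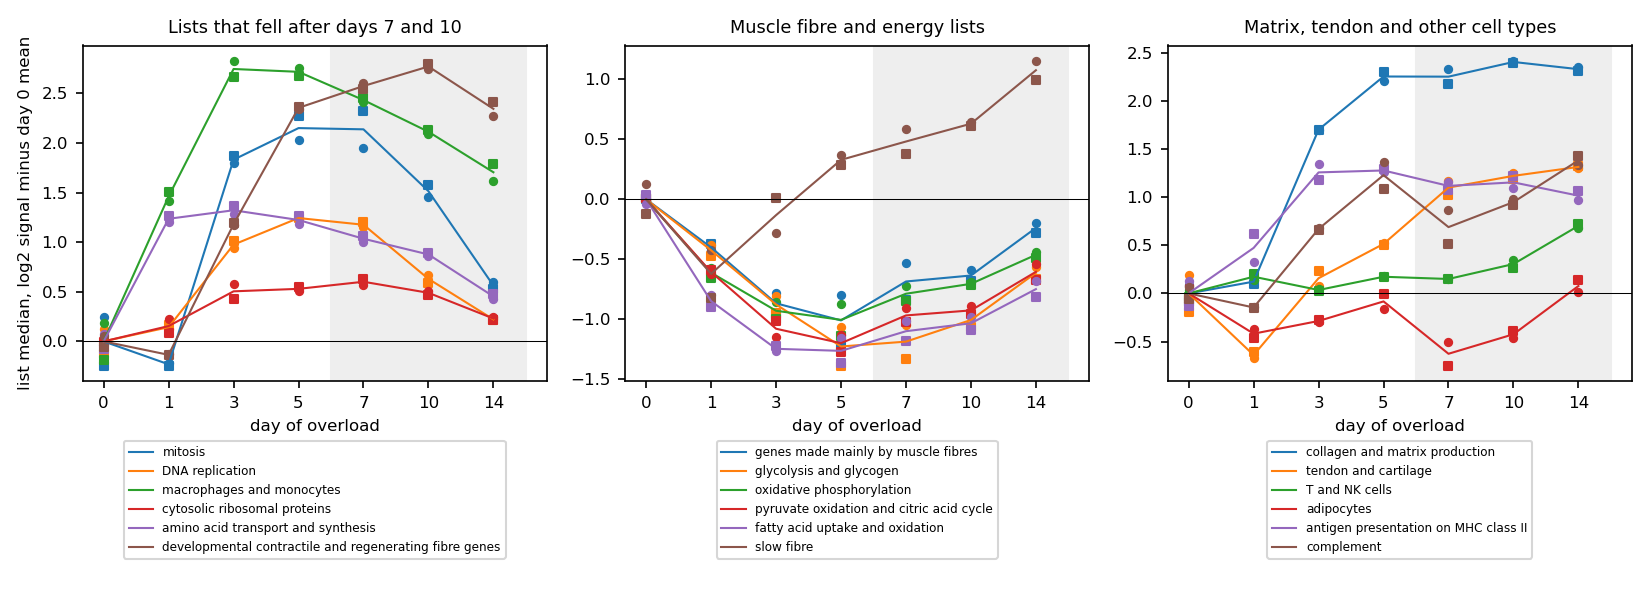
Median over each list's genes of log2 signal minus the gene's day 0 mean, by day of overload, with left pools as circles, right pools as squares and lines through the mean of the pair; days 7 to 14 are shaded. Division lists fall steeply after day 7, and the energy lists and the genes made mainly by muscle fibres climb toward 0 without reaching it. The slow fibre list lies above 0 from day 5 and climbs further, and collagen and matrix genes stay near 2.3.

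Collagen and matrix genes stayed far above day 0. Of 33 genes, 5 were higher and 8 lower (median -0.14), and the median difference from day 0 was 2.35 on days 7 and 10 and 2.32 on day 14. Col1a1, a chain of type I collagen, read 10.56 and 10.39 on day 0, 13.46 and 13.41 on day 7, 13.80 and 13.72 on day 10 and 13.60 and 13.51 on day 14. Day 14 lay between days 7 and 10 (-0.04 ± 0.07, adjusted p = 0.77). Periostin, Postn, likewise read 9.87 and 9.43 on day 0, 13.81 and 13.82 on day 7, 13.90 and 13.90 on day 10 and 13.75 and 13.89 on day 14 (-0.04 ± 0.17, adjusted p = 0.91). A missed threshold does not show that a level was unchanged. The smallest change that could be called was larger than these standard errors: Myh1, at 0.31 ± 0.10, only just passed (adjusted p = 0.049). Within the list, tenascin C, Tnc, a matrix protein of injury and load (-0.73 ± 0.14, adjusted p = 0.0035), and Tgfbi (-0.63 ± 0.09, adjusted p = 8.2e-04) fell, and the small proteoglycan lumican, Lum, grew: 9.42 and 9.49 on day 0, 11.02 and 10.76 on day 7, 11.47 and 11.27 on day 10 and 11.81 and 11.89 on day 14, higher on each later day, a difference of 0.72 ± 0.11 (adjusted p = 0.0010). Without either pool of day 14, 1 and 3 genes were higher and 6 and 4 lower; without the right pool of day 7 or 10, 3 and 2 were higher. Proteases and their inhibitors parted too, 4 higher and 6 lower of 20 (2 higher without the left pool of day 14). Plaur, the urokinase receptor (-0.80 ± 0.08, adjusted p = 9.7e-05), and the inhibitor Timp1 (-0.72 ± 0.12, adjusted p = 0.0014) fell. The 4 higher, named after their values were seen, were Timp3 (0.71), Timp4 (0.59), Mmp3 (0.71) and Adamts5 (0.46).

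The largest rises that grew further included genes of secreted and matrix proteins. Sfrp4, a secreted protein that binds Wnt ligands, had the largest difference among the 220. It read 8.40 and 7.83 on day 0, 10.15 and 9.33 on day 7, 10.50 and 9.93 on day 10 and 11.57 and 11.48 on day 14. Left pools were higher than right on each of the earlier days shown, and both day 14 pools lay above all of them. The difference was 1.55 ± 0.23 (2.92-fold, adjusted p = 8.5e-04), which brought its rise over day 0 to 3.41. Eln, elastin, the protein of elastic fibres, read 9.17 and 8.98 on day 0, 9.47 and 8.95 on day 7, 10.12 and 9.60 on day 10 and 10.97 and 10.72 on day 14, rising at each step. The difference was 1.31 ± 0.16 (adjusted p = 2.8e-04), larger than its rise of 0.46 by days 7 and 10. The matrix protein Spon2 (1.20 ± 0.15, adjusted p = 3.3e-04) and Kcne1l, an ancillary potassium channel subunit (1.30 ± 0.09, adjusted p = 8.4e-06), belonged to the same 6 largest of the 220, with Dlk1 and Cd3g. Each of the 6 was called without any 1 array.

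Of 15 markers of fibroblasts and fibro-adipogenic progenitors, the connective tissue stem cells of muscle, 8 were higher and 3 lower (median 0.26). Pi16, a marker of fibroblasts around vessels, read 9.50 and 9.29 on day 0, 9.77 and 9.16 on day 7, 9.99 and 9.32 on day 10 and 11.01 and 10.74 on day 14, with both day 14 pools above all earlier ones. Its difference was 1.32 ± 0.20 (adjusted p = 9.5e-04), with no called change between day 0 and days 7 and 10. Clec3b, tetranectin, rose by 0.95 ± 0.12 (adjusted p = 4.7e-04) from below day 0. The 3 lower were Lrrc15, a marker of activated matrix-producing fibroblasts (-0.55 ± 0.12, adjusted p = 0.0087; 0.071 without the left pool of day 14), and, named after their values were seen, Thy1 (-0.34) and Pdgfrb (-0.25). Without the left or right pool of day 14, 5 were higher in each case, and 0 and 1 lower. Itih5, which binds hyaluronan, had a pattern like that of Pi16, 9.52 and 9.35 on day 0, 9.35 and 8.74 on day 7, 9.76 and 9.59 on day 10 and 10.65 and 10.71 on day 14, with both day 14 pools highest. It rose by 1.32 ± 0.14 (adjusted p = 1.2e-04).

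Tendon and cartilage genes gave 8 of 14 higher and 2 lower (median 0.49; 4 higher without the right pool of day 14). Keratocan, Kera, a tendon proteoglycan, read 8.64 and 8.14 on day 0, 9.51 and 9.35 on day 7, 10.21 and 10.12 on day 10 and 10.75 and 10.73 on day 14, higher on each later day, with a difference of 0.94 ± 0.13 (adjusted p = 5.1e-04). Aggrecan, Acan, the large proteoglycan of cartilage, rose by 0.93 ± 0.18 (adjusted p = 0.0039). Lubricin, Prg4, which coats sliding surfaces, fell by 1.05 ± 0.10 (adjusted p = 7.0e-05) and was back near day 0 (0.15 above it, adjusted p = 0.30). The other lower member, the tendon transcription factor Scx (-0.35), named after its value was seen, was not called in 1 of the 6 fits without an array.

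Of 25 genes of the insulin-like growth factor, myostatin and TGF-beta axis, 5 were higher and 3 lower. Over all genes the shares were 8.37% and 10.3%, and the list's median difference was -0.02. Myostatin, Mstn, the secreted brake on muscle mass, read 11.19 and 11.28 on day 0, 8.62 and 8.47 on day 7, 8.46 and 8.70 on day 10 and 9.54 and 9.77 on day 14. The 4 earlier pools were low and alike, and day 14 was higher in both pools while short of day 0. The difference was 1.09 ± 0.13 (2.13-fold higher, adjusted p = 2.7e-04), 40.8% of its fall. Its antagonist follistatin, Fst, named after its value was seen, also rose (0.53 ± 0.11, adjusted p = 0.0058). Ltbp2, a matrix protein related to the carriers of latent TGF-beta, fell by 1.14 ± 0.09 (adjusted p = 2.9e-05). Igf1 read 9.94 and 9.78 on day 0, 11.72 and 11.55 on day 7, 11.91 and 12.02 on day 10 and 11.94 and 12.07 on day 14 and was not called (0.21 ± 0.08, adjusted p = 0.087). Without the left pool of day 14, 2 were higher and 1 lower, without the right 2 were higher, and without the right pool of day 7 or 10, 3 were higher.

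Of 14 fat cell genes, 12 were higher and 0 lower (median 0.50; 7 higher without the right pool of day 14). Adiponectin, Adipoq, a hormone of fat cells, read 8.77 and 8.14 on day 0, 8.30 and 7.94 on day 7, 8.39 and 8.36 on day 10 and 9.04 and 9.62 on day 14; the right pool of day 14 was the highest, and both lay above all earlier pools. Its difference was 1.08 ± 0.20 (adjusted p = 0.0035; 0.053 without the right pool of day 14). Plin4, which coats fat droplets in fat cells and fibres, rose by 0.85 ± 0.10 (adjusted p = 2.6e-04) and the fat cell hormone Retn by 0.77 ± 0.11 (adjusted p = 5.9e-04). By days 7 and 10, 9 of the 14 had been below day 0, and on day 14, 4 still were and 4 were above it. Of 13 smooth muscle genes 4 were higher and 3 lower (all genes: 8.37% and 10.3%), with a median of 0.03. The smooth muscle myosin Myh11 was higher (0.74 ± 0.11, adjusted p = 8.9e-04) and the contractile regulator Cnn1 lower (-0.58 ± 0.10, adjusted p = 0.0016). Fewer were called higher without the left pool of day 14, where the list's median was 0.05. Of 17 endothelial genes 1, the receptor Tek (0.36), was higher and 0 were lower; it was not called without the left (adjusted p = 0.060) or right (0.077) pool of day 14.

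**Figure D4:**
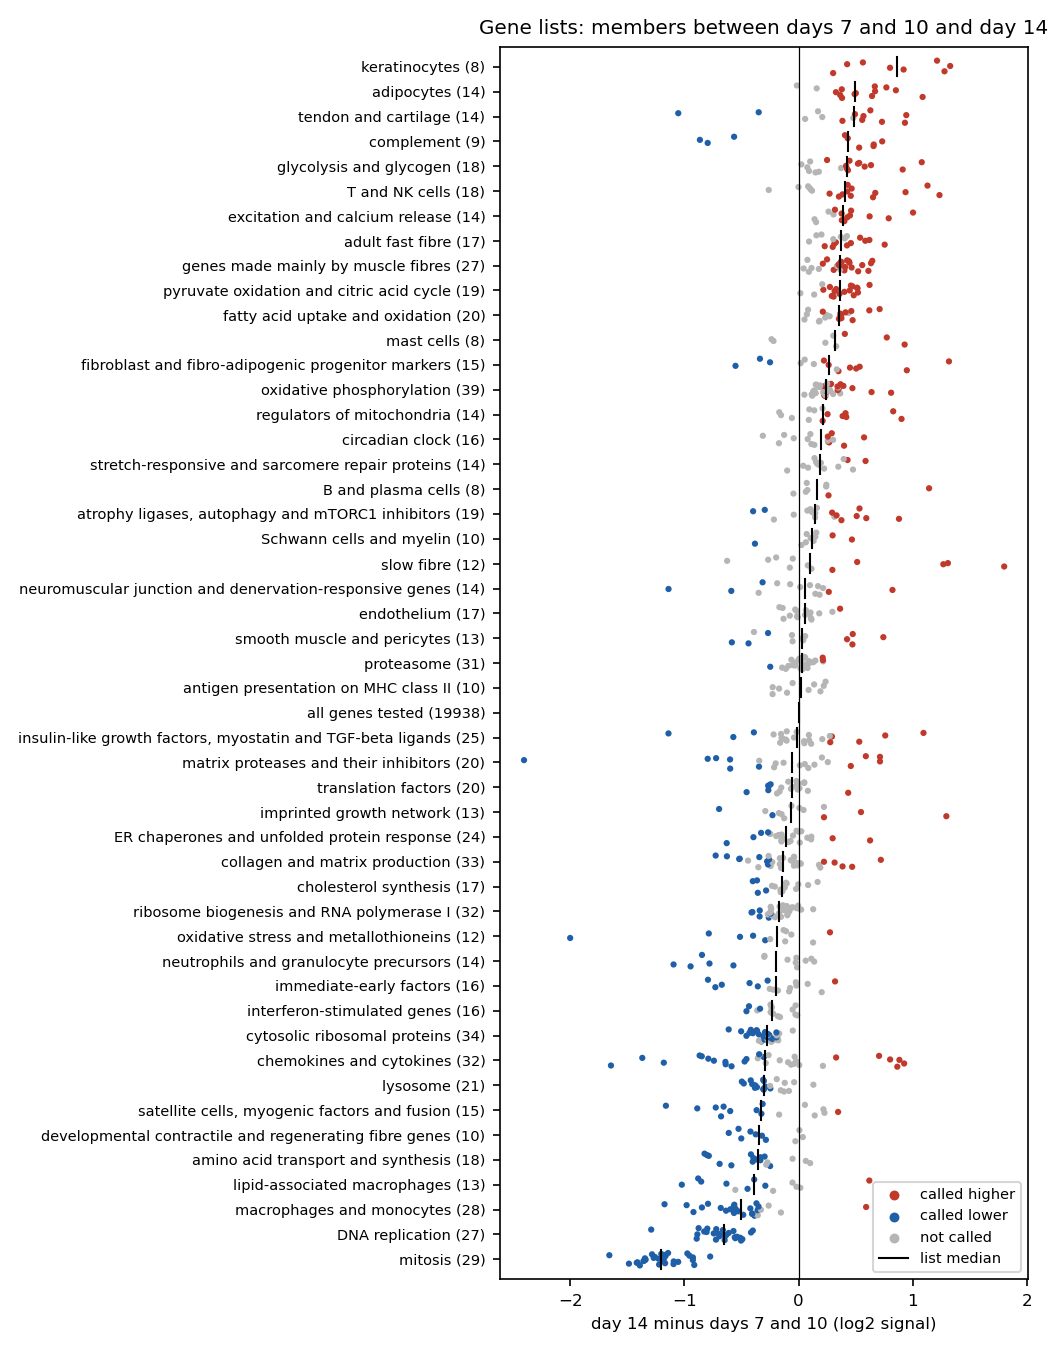
Difference between day 14 and days 7 and 10 in log2 signal for every gene of the lists with at least 8 measured members (number in brackets), ordered by list median (black bar). Red and blue points were called higher and lower, grey points were not called; mitosis and replication hold blue points only, and fibre and energy lists hold red and grey points only.

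RNAs of one imprinted region were higher on day 14 than on days 7 and 10, mostly through a step before day 10. The Dlk1-Dio3 region holds the paternally expressed genes Dlk1 and Dio3 and a long maternally expressed transcript that starts at Meg3 and hosts many microRNAs; it is active in fetal muscle and in regenerating muscle. The region was chosen after its values were seen. The probe sets read the longer host or precursor RNA as well as any mature microRNA, and cannot tell these apart. Of 61 microRNA genes of the region in the RefSeq table, 40 were measured: 28 were higher on day 14 and 0 lower, with a median difference of 0.54. The other 256 measured microRNA genes had 11 higher and 5 lower and a median of 0.03. Most of the step lay between days 7 and 10, with 22 of 40 called higher on day 10 than on day 7 (median 0.65) and 2 called higher on day 14 than on day 10 (median 0.21). Those 2 were Mir376c and Mir539. Leaving out 1 of the 6 arrays gave 21 to 27 of 40, and a median between 0.50 and 0.59.

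The mature sequences are shown for the microRNA genes with the 4 largest differences and for the pair Mir379 and Mir411, because in 76 matched mature sequences of 40 genes with 74 different seeds only 2 seeds were shared, both by members of these. Letters are 5′ to 3′ from RefSeq (GRCm38.p6), with the seed, bases 2 to 8, in capitals.
miR-376b-5p: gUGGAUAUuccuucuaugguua
miR-376c-5p: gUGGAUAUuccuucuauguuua
miR-379-3p: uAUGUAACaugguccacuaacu
miR-411-3p: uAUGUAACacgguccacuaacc
miR-376a-3p: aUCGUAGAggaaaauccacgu
miR-539-5p: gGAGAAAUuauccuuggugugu

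Mir376a read 3.05 and 3.08 on day 0, 4.72 and 4.30 on day 7, 5.48 and 5.92 on day 10 and 5.87 and 6.49 on day 14. The right pool of day 10 lay above the left pool of day 14, so the groups overlapped, and the difference was 1.07 ± 0.17 (adjusted p = 0.0015). For Mir539 the signals were 4.78 and 4.93 on day 0, 6.77 and 6.47 on day 7, 7.13 and 7.22 on day 10 and 7.76 and 7.86 on day 14, without overlap, a difference of 0.91 ± 0.12 (adjusted p = 4.4e-04). Mir376c (0.85) and Mir376b (0.85) share the seed UGGAUAU in their 5p arms, and Mir379 (0.66) and Mir411 (0.74) share AUGUAAC in their 3p arms. At the ends of the region, Dlk1, a membrane protein related to Notch ligands, read 8.67 and 8.65 on day 0, 10.12 and 9.86 on day 7, 11.47 and 11.15 on day 10 and 11.91 and 11.98 on day 14. It was higher on each later day, a difference of 1.29 ± 0.12 (adjusted p = 8.3e-05). Meg3 read 8.68 and 8.57 on day 0, 11.50 and 11.23 on day 7, 12.20 and 12.33 on day 10 and 12.36 and 12.36 on day 14, a difference of 0.55 ± 0.09 (adjusted p = 0.0013), nearly all of it between days 7 and 10 (0.90, against 0.09 from day 10 to 14). The noncoding Rian lay at 0.34 ± 0.14 (adjusted p = 0.12). Dio3, the enzyme that inactivates thyroid hormone, went the other way, 6.73 and 6.91 on day 0, 7.53 and 7.41 on day 7, 6.88 and 6.84 on day 10 and 6.77 and 6.51 on day 14, with -0.52 ± 0.09 (adjusted p = 0.0017), and was back at day 0. Among imprinted genes elsewhere, Peg10 was lower (-0.70 ± 0.11, adjusted p = 0.0011), and Mest, which had risen by 5.26, was not called (-0.29 ± 0.11, adjusted p = 0.078).

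**Figure D5:**
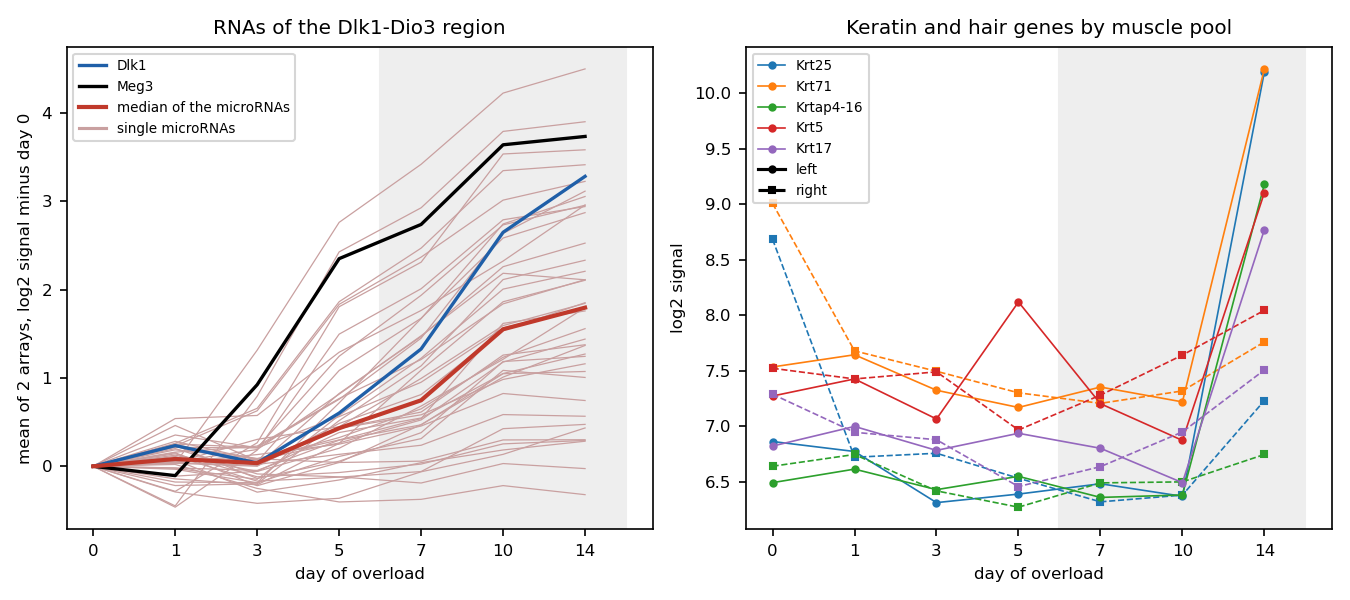
Left: mean log2 signal of the pair of arrays minus the day 0 mean for 40 microRNA genes of the Dlk1-Dio3 region (thin lines), their median (red), Dlk1 (blue) and Meg3 (black), by day of overload. Right: log2 signal of 5 keratin and hair genes in left (solid) and right (dashed) pools; on day 14 the left pool of Krt25 and Krt71 stands above 10 and the right pool below 8, and the right pool of day 0 is also high.

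Keratin and hair genes were 5 of the 12 largest rises, and 4 of the 5 lost their call without the left pool of day 14. Krt25, a keratin of the hair follicle, read 6.86 and 8.68 on day 0, 6.48 and 6.32 on day 7, 6.37 and 6.38 on day 10 and 10.19 and 7.23 on day 14. The left pool of day 14 was the highest, and the right pool of day 0 was above the right pool of day 14. The difference was 2.33 ± 0.62 (adjusted p = 0.022); without the left pool of day 14 it was 0.85 (adjusted p = 0.30). Krt71 (1.72 ± 0.51; adjusted p = 0.036, and 0.47 without that pool), Krtap4-16 (1.53; adjusted p = 0.030, and 0.13) and Krt5 (1.33; adjusted p = 0.015, and 0.20) did the same. Krt17 (1.42 ± 0.27, adjusted p = 0.0040) stayed called. Krt71 and Krtap4-16 also lost their call with each array of days 7 and 10 left out in turn. Krt25 also lost its call without the right pool of day 7 or of day 10. All 8 keratinocyte genes of the list were higher (median 0.86), and 2 without the left pool of day 14 (median 0.48); without the right pool of day 7 there were 5. Their part in the other results was not tested. The simple epithelial keratins Krt8 and Krt18, named after their values were seen, behaved otherwise, with the right pool of day 14 highest: Krt18 read 8.47 and 8.85 on day 0, 8.91 and 8.71 on day 7, 9.45 and 9.16 on day 10 and 9.92 and 10.38 on day 14 (1.09 ± 0.17, adjusted p = 0.0012).

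Falls that grew further were few, 26 genes, and small. Gadd45g, a stress-induced growth arrest gene, read 9.78 and 9.94 on day 0, 9.66 and 9.79 on day 7, 9.49 and 9.43 on day 10 and 8.98 and 9.01 on day 14. It was near day 0 on day 7, lower on day 10 and lowest on day 14, a difference of -0.60 ± 0.07 (adjusted p = 3.0e-04). Npc1, which exports cholesterol from lysosomes (-0.42 ± 0.06, adjusted p = 5.8e-04), and Cdk18 (-0.33 ± 0.06, adjusted p = 0.0026) were next among those called without any 1 array. The replication factor subunit Rfc4, which alone of the replication list had fallen by days 7 and 10, lay at -0.40 (adjusted p = 0.0085; 0.058 and 0.059 without the left and right pool of day 14). The count of such genes was 9 without the right pool of day 14, 12 and 17 without the left and right pool of day 10 and 16 and 15 without those of day 7.

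The falls that resolved most, besides Myh7, Myl3 and the antibody segment, were in Hmcn2, a large matrix protein (1.30 ± 0.14, adjusted p = 1.2e-04), Mlf1 (1.29 ± 0.18, adjusted p = 5.6e-04) and Mmrn1, a protein of platelets and lymphatic vessels (1.27 ± 0.20, adjusted p = 0.0014). Mlf1 read 10.74 and 10.95 on day 0, 8.62 and 8.05 on day 7, 8.53 and 8.28 on day 10 and 9.78 and 9.54 on day 14, flat from day 7 to day 10 and then higher in both pools. It had regained 52.1% of its fall, whereas Hmcn2 stood 0.47 above day 0. The neuropeptide galanin, Gal, and the protease Adam8 were among the 12 largest falls, at -1.64 ± 0.15 (adjusted p = 7.0e-05) and -1.53 ± 0.12 (adjusted p = 2.9e-05); Gal was back at day 0 (0.03 above it, adjusted p = 0.91).

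Of 16 clock genes, 6 were higher and 0 lower (median 0.20; 2 or 3 higher without the right pool of day 7, the left of day 10 or either pool of day 14), and 15 were still below day 0. The repressor Nr1d1 read 12.70 and 12.69 on day 0, 11.76 and 11.47 on day 7, 11.96 and 11.72 on day 10 and 12.36 and 12.24 on day 14, with day 14 above all earlier pools, 0.57 ± 0.11 (adjusted p = 0.0031). The activator Arntl rose by 0.40 ± 0.07 (adjusted p = 0.0022). The labels used here give no hour of sampling.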

How the data were processed

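RNA of pooled plantaris muscles was read on 14 Affymetrix arrays, and the authors deposited log2 signal per probe set, made with Partek per the submitters' processing notes. The normalization method and the Partek version are not given in the sources used here. The labels disagree on the RNA labelled per array, with 250 ng in their protocol against 100 ng in the study's design. The values ran from 2.35 to 14.8, and no detection calls were used, so a low signal cannot be told from background.

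Of 35557 probe sets, 21789 had a single gene symbol in the platform annotation, 1621 had several and 12147 had none. For 999 genes with several probe sets, the one with the highest mean was used, which left 19938 genes. With limma 3.58.1 (R 4.3.3), each day was a group and the 14 arrays shared 1 estimate of the spread; p-values were adjusted by the Benjamini-Hochberg method over all genes. The script was tested on simulated data. Nothing ties the left and right pools to the same animals, so the sides were not used as pairs. Across genes, the right minus left differences correlated above 0.1 in 6 of 21 pairs of days. Days 7 and 10 were among these (0.186), whereas day 14 correlated with day 7 at -0.051 and with day 10 at -0.002. The number of arrays limits the precision, with a median standard error of 0.084.

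The comparison, its members and the 49 gene lists (889 of 956 entries measured) were chosen with earlier results of these data known. Genes were named by a rule. Called genes without overlap between the groups gave the 12 largest falls and 12 largest rises, the 6 largest in each of the 4 classes and the 8 largest without an earlier change. Predicted genes and genes of microRNAs, small nucleolar RNAs and olfactory and vomeronasal receptors were left out first, so these ranks hold among the rest. The rule also took the 3 largest called members of each list and 24 genes by name, with or without overlap. Genes outside that rule were named after their values were seen: those so marked in the text, and Ckm, Camp, Ngp, Cdk1, Prc1, Cfp, Klhl40, Rian, Dio3 and the microRNAs. Promoter and microRNA sequences were matched by gene ID to RefSeq (GRCm38.p6). Alternatives covered the normalization, filter, probe set rule, variance model, weights, blocks, reference day, threshold and each array left out.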

Additional observations from a re-analysis of the deposited data

Results flagged for a closer look

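In 4 of the 218 genes looked at, 1 of the 4 arrays of days 7 and 10 stood apart from the other 3 by more than Dixon's critical share of their range. For 4 values from 1 normal distribution, chance gives such a gap in about 1 in 20 groups. These arrays come from days 7 and 10, so that rate need not hold here. The neutrophil and monocyte receptor Trem1 read 6.97 in the left pool of day 10 and between 7.30 and 7.36 in the others, a gap of 0.854 of the range. Apobec2, made by muscle fibres, read 11.59 in the right pool of day 7 and 11.94 to 11.95 in the others (0.969), and Idh3a, of the citric acid cycle, read 11.71 in that same pool and 11.89 to 11.92 in the others (0.847). The fat cell hormone Retn read 8.59 in the left pool of day 7 and 8.29 to 8.34 in the others (0.846). Of these, the call of Apobec2 was lost without the right pool of day 7 (adjusted p = 0.064) and without the left pool of day 14 (0.18).

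The hair protein gene Krtap4-16 differed between sides: the change on day 14 was 2.81 in the left and 0.25 in the right pools, and the right change minus the left was -2.56 (limma, adjusted p = 0.0025). Each side has 1 array on day 14, so that p takes its spread from the arrays of the other days. Among all genes, 18 had such a difference between sides (1604 at an unadjusted p under 0.05), and other hair genes, chosen after their values were seen, such as Krtap6-5 (1.92 left, -0.25 right) and Krtap3-3 (2.58 left, 0.15 right) were among them.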

How the results depend on the processing

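The counts in order are genes higher, genes lower, rises that resolved, rises that grew, falls that resolved and falls that grew: 1669, 2052, 1859, 220, 1202 and 26. They were 937, 1209, 1148, 82, 716 and 10 with the day as a random block over 6 arrays (consensus correlation 0.021). The design is balanced, so the differences in that fit equal the main ones and their signs could not change. Against day 10 alone the counts were 756, 1019, 971, 72, 572 and 8. At an adjusted p under 0.01 they were 729, 1049, 988, 104, 481 and 6, and with a difference of at least 0.5 they were 511, 580, 567, 104, 302 and 2. Against day 7 alone, 48 falls grew. With each array left out in turn they ranged from 703 to 1618, 981 to 1825, 877 to 1941, 106 to 227, 440 to 1201 and 9 to 27. Under the other settings each count stayed within 1.5 times: quantile normalization (1838 higher, 1880 lower), equal array medians (1947 and 1773), the lowest 25% of signal left out, the mean of probe sets, weights per array, robust estimation with a trend on intensity, the 6 arrays alone (1468 and 1953), and, for the classes, earlier change from day 5. Of the called genes, 44.9% were higher in the main fit, 49.4% after quantile normalization and 52.3% with equal array medians. Which direction held more genes therefore depended on the scaling. With side as a replicate block the counts were 1847, 2142, 1926, 231, 1359 and 32, and no named gene lost its call. Of 164 called named genes, 9 lost their call under quantile normalization, 2 with equal medians and 7 to 52 with an array left out, and none reversed under these. Among the 9 were Myh1, Myh3 and Blk. With 2 arrays a day, calls near the threshold rest on single pools.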

Other observations

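Other lists showed few calls. Of 16 interferon-induced genes 3 were lower on day 14 and 0 higher (median -0.24), and 0 to 2 were called with 1 array left out. Of 17 genes of cholesterol synthesis 4 were lower and 0 higher (median -0.14). The list's median difference was -0.38 between days 7 and 10 and 0.07 between days 10 and 14. Fewer were called lower without the right pool of day 7, the left of day 10 or the right of day 14, where the median was -0.12, -0.13 and -0.05. Immediate early and growth response genes gave 6 of 16 lower and 1 higher, Klf4, named after its value was seen and not called in 5 of the 6 fits without an array, with Fosl1 at -0.73 and Ier3 at -0.67 beside Myc. Oxidative stress and metal response genes gave 5 of 12 lower and 1 higher, with the metallothionein Mt1 at -0.51. Without the right pool of day 7 or 10 or the left pool of day 14, 2 were lower and 0 higher, and without the right pool of day 14, 3 and 0.

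For some genes with an earlier rise no difference was called, which does not show that they were unchanged. The secreted protein C1qtnf3 stood 5.35 above day 0 on day 14 and differed by -0.01 from days 7 and 10 (adjusted p = 0.96), and the stretch-responsive Ankrd1 differed by -0.10 (adjusted p = 0.77).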
